A study of Saccharomyces cerevisiae with 10 samples.

Results

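The large subunit of the cytosolic ribosome of budding yeast, Saccharomyces cerevisiae, is built from proteins encoded by 81 genes, and the RNA of all of these was measured in 10 libraries of total RNA sequenced by strand. The members are the rows whose R64 standard name is RPL with a number and an optional A or B, or RPP0, RPP1A, RPP1B, RPP2A or RPP2B. All 81 genes so named in R64 were found among 10799 yeast features, of which 5897 are protein-coding genes, and no measured value was used to choose them. They lie on 14 chromosomes, 70 of them as 35 pairs of paralogs named A and B, and 11 have no paralog.

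The libraries fall into 5 groups of 2 biological replicates, all MATa and grown in rich medium (YPD) at 30 °C to an OD600 of 0.5. In the BY4741 background, the xrn1 strain carries xrn1Δ::kanMX4 together with his3Δ1, leu2Δ0, met15Δ0 and ura3Δ0. The dbp2 strain is also labelled BY4741 and carries dbp2Δ::KanMX6 with his3Δ0, leu2Δ0 and ura3Δ0, with its methionine and lysine markers given as "met-" and "lys?". WT is BY4741 itself, with the same marker alleles as xrn1. The tet-MTR4-Dox strain is BMA64-1A in which the MTR4 gene stands behind a tetOFF promoter that the antibiotic shuts off, next to a kanMX6 marker, and WT-Dox is BMA64-1A without that change. Both BMA64-1A groups carry ade2-1, trp1Δ2, ura3-1 and can1-100 with mutant alleles of HIS3 and LEU2, and both grew with 10 µg/mL doxycycline for 6 hours. WT-Dox therefore differs from WT in strain background and in the antibiotic, and these cannot be told apart.

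Ribosomal protein genes are among the most heavily transcribed genes of growing yeast, and their messages are short, mostly intron-containing and translated at high rates. Many are driven by the factor Rap1 together with Fhl1 and Ifh1, and most are kept in duplicate since an ancient doubling of the yeast genome. Xrn1 is the main cytoplasmic exonuclease that degrades decapped RNA from its 5′ end, Dbp2 is a DEAD-box helicase that remodels nascent RNA and protein complexes, and Mtr4 is a helicase that unwinds RNA for degradation by the exosome in the nucleus. The study's title names long noncoding RNAs that accumulate when these factors are missing or depleted, and the same libraries also measured the messages described here.

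Values are the deposited densities, which are reads per feature length scaled by a factor per library that follows ERCC spike-in RNAs, external standards of known sequence. Each library held between 15971461 and 33521569 reads, with 1.35% to 3.14% on the spike-ins, and each of the 81 genes had between 232 and 152296 reads in a library. Changes are given on 2 scales, per spike-in RNA and relative to the median protein-coding gene, and a call means an adjusted p under 0.05 in limma, a linear model fitted over all 9666 features that passed a filter on low values, as all 81 genes did. Per spike-in RNA, the median of the per-gene log2 changes over 5613 protein-coding genes was 1.84 in xrn1 against WT, 0.77 in dbp2 against WT, 0.81 in tet-MTR4-Dox against WT-Dox and -0.14 in WT-Dox against WT. The labels do not say at which step the spike-ins were added, and in bulk RNA fewer cells and less RNA per cell cannot be told apart. XRN1 had 0.102 and 0.106 density units in xrn1, against 2.49 and 2.28 in WT. DBP2 had 0.00313 and 0.00326 in dbp2, against 3.49 and 3.41 in WT. MTR4 had 0.429 and 0.469 in tet-MTR4-Dox, against 1.49 and 1.30 in WT-Dox. These levels of XRN1, DBP2 and MTR4 go with the labels. Of the a-cell genes, MFA2 had at least 12.6 density units in every library, STE2 at least 3.91 and MFA1 at least 2.33. The a-cell gene BAR1 was lower, with 0.534 and 0.502 in dbp2 against 2.75 and 2.65 in WT. In tet-MTR4-Dox BAR1 had 0.895 and 1.06, against 1.74 and 1.71 in WT-Dox. The alpha-cell genes MF(ALPHA)1 and STE3 stayed at or below 0.0530. The third alpha-cell gene, MF(ALPHA)2, had 0.172 and 0.178 in tet-MTR4-Dox against 0.0197 and 0.0111 in WT-Dox, and at most 0.0182 in the other 3 groups. The dbp2 libraries also differed from WT at LYS2 (0.000502 and 0.000349, against 1.10 and 0.999) and MET17 (1.75 and 1.64, against 0.00125 and 0.000477). MET17 is also named MET15, and the dbp2 label reads "met-". HIS3 had 1.43 and 1.40 in dbp2, though labelled his3Δ0, against 0.550 and 0.556 in WT, labelled his3Δ1. The tet-MTR4-Dox libraries differed from WT-Dox at TRP1 (0.129 and 0.128, against 0 and 0.000690), though both are labelled trp1Δ2. The part of these marker differences in the results was not tested.

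In each group the 81 genes stood near the top of the transcriptome. Their median density was 26.6 in xrn1, 26.2 in dbp2 and 19.1 in WT, and 19.8 in tet-MTR4-Dox against 19.5 in WT-Dox. The median protein-coding gene had 1.58 in xrn1, 0.680 in dbp2 and 0.373 in WT, and 0.612 in tet-MTR4-Dox against 0.334 in WT-Dox. The median large-subunit gene was thus 16.9 times the median protein-coding gene in xrn1, 38.5 times in dbp2 and 51.1 times in WT, and 32.4 times in tet-MTR4-Dox against 58.5 times in WT-Dox. Summed, the 81 genes made up 12.2% and 12.04% of the protein-coding density in xrn1. Their share was 17.5% and 17.6% for dbp2, compared with 17.0% and 17.3% for WT. They made up 14.9% and 14.7% in tet-MTR4-Dox, against 17.9% and 17.9% in WT-Dox. The xrn1 and tet-MTR4-Dox shares lay below both libraries of their controls, and the dbp2 share lay slightly above both WT libraries.

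**Figure D1:**
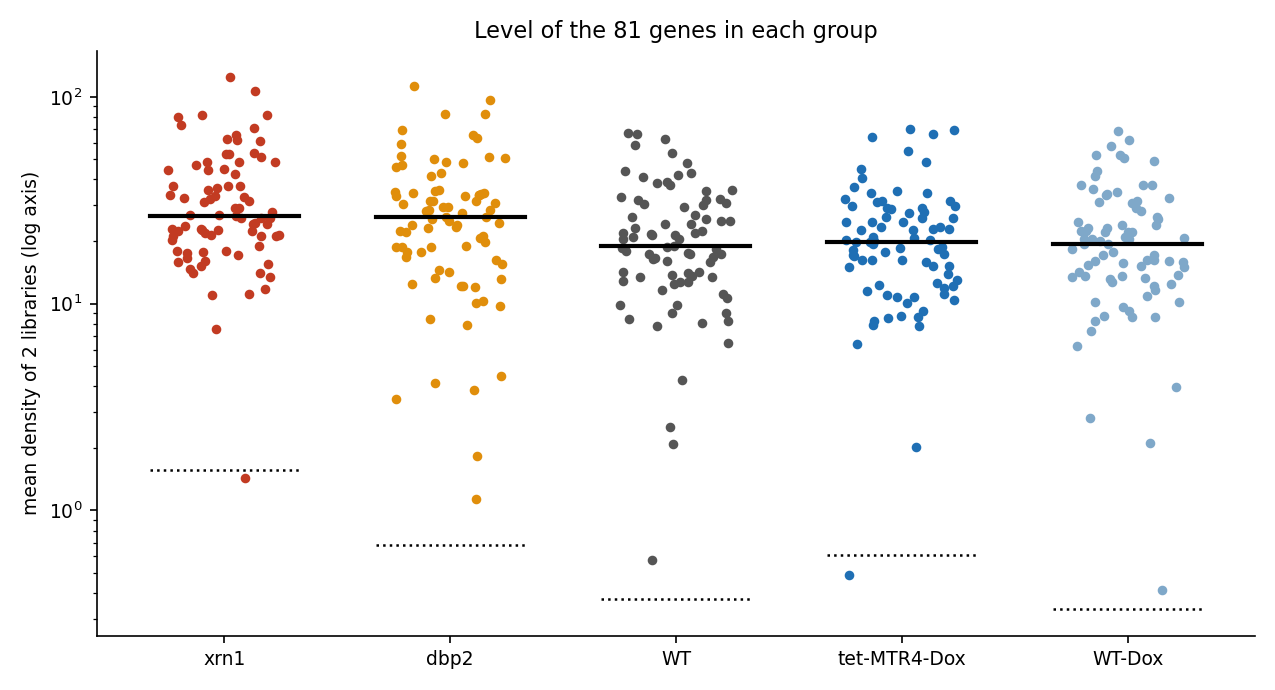
Mean density of the 2 libraries of each group on a log axis, 1 point per gene for 81 genes, with a solid line at their median and a dotted line at the median protein-coding gene. The members' median is 26.6 in xrn1 and 19.1 in WT, while the dotted line is at 1.58 in xrn1 and 0.373 in WT, and the lowest point in every group is RPL15B.

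Levels ranged widely among the genes. In WT the most abundant RNAs per length were those of RPP0, the base of the stalk that recruits translation factors, with 67.1 ± 1.6 density units (SD, n = 2), and RPL10, the last large-subunit protein to join, with 65.9 ± 1.3. RPL3, which reaches towards the peptidyl transferase centre, had 62.4 ± 2.2, and RPL15A, a core protein bound early in assembly, had 58.7 ± 2.3. Each of these 4 differed from the next in that order by less than the sum of their SDs, and RPL5, which follows at 53.5 ± 1.9, lay below RPL15A by more than that. At the low end RPL15B had 0.573 ± 0.006, RPL22B 2.09 ± 0.02, RPL7B 2.53 ± 0.15 and RPL18B 4.29 ± 0.16, all of them B copies and all separated by more than their SDs. The highest gene was 86.9 times the lowest in xrn1, 99.0 times in dbp2, 117 times in WT, 143 times in tet-MTR4-Dox and 167 times in WT-Dox. The feature lengths include introns, which lowers the density of the 53 intron-containing genes. Per mature length RPL25, an exit tunnel protein, had 68.1 in WT, which differed from RPP0 (67.1 ± 1.6) by less than the SD of RPP0.

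Introns are the feature most of these genes share beyond the rule. Of the 81 genes, 53 carry an intron in the coding sequence, 2 of them (RPL7A and RPL7B) carry 2, and introns of a gene sum to 147 to 927 bases with a median of 405. The 5′ splice site reads GTATGT in 44 of the 55 introns, and the branch site TACTAAC was found in 52. The 11 introns with another hexamer belong to RPL16A, RPL16B, RPL20A, RPL22A, RPL22B, RPL27A, RPL27B, RPL30, RPL40A, RPL43A and RPL43B. RPL7B, RPL17A and RPL37A, which are also named below for large changes, have GTATGT and are not shown. The 5′ junctions of some other intron-containing genes named below are shown here from R64. Each has 6 exon bases, then the first 6 intron bases in capitals, then 4 more intron bases.
RPL22A, chrXII:263200-263215, + strand: ccaaacGTATGAtact
RPL22B, chrVI:64911-64926, - strand: ccaaacGTACGTtaat
RPL40A, chrIX:68710-68725, + strand: gcaaatGTATGCacca
RPL40B, chrXI:618733-618748, - strand: gcaaatGTATGTtacg
RPL43A, chrXVI:654162-654177, + strand: aaaaatGTATGAtata
RPL30, chrVII:439088-439103, + strand: gagatgGTCAGTataa
RPL28, chrVII:311010-311025, + strand: tctcagGTATGTagtt
RPL18B, chrXIV:64441-64456, - strand: tagctcGTATGTattg
RPL39, chrX:75933-75948, + strand: atggctGTATGTtaga

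Read without splicing, the RNA of RPL22B meets a stop codon after 6 residues of a 122-residue protein and that of RPL30 after 5 of 105. That of RPL28 does so after 18 of 149 and that of RPL40B after 21 of 128. An early stop is shared by all 53 genes with an intron. It comes after 2 of 172 residues in RPL20A and RPL20B and after 114 of 184 in RPL17A. In RPL13B it comes after 5 of 199 and in RPL36B after 9 of 100. Each of the 81 features is at least as long as the gene with its introns, so spliced and unspliced RNA are counted together in every value below.

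In xrn1 the RNA of nearly all of these genes was higher than in WT per spike-in RNA, with a median change smaller than that of protein-coding genes. Limma called 76 of 81 higher and 0 lower, where 94.9% of all features were called higher and 0.89% lower, and the median change was 0.51 (log2) against 1.84 for protein-coding genes. Among the 5 uncalled genes, RPL1A had a change of -0.02 ± 0.07 (SE). It was the only gene of the 81 below 0, so at an unadjusted p under 0.05 limma also had 0 lower. The same held for limma voom on recovered reads. Most windows of 50 bases in RPL1A and in its paralog RPL1B occur elsewhere in the genome. How reads were split between these copies is therefore uncertain, and its part in the RPL1A value was not tested. Relative to the median protein-coding gene, 1 was called higher and 80 lower, with 42.0% of features higher and 32.5% lower as background. The median was -1.41.

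The 1 gene that was higher on both scales was RPL22B (chromosome VI, 64243 to 64932). It encodes the minor form of a protein that is known in yeast to hold down the splicing of its own message. RPL22B had 17.1 and 17.5 density units in xrn1, against 2.08 and 2.10 in WT. Its log2 change was 3.04 ± 0.06 per spike-in RNA (limma adjusted p = 1.1e-11) and 1.12 ± 0.06 relative to the median protein-coding gene (adjusted p = 2.6e-07). Both xrn1 libraries lay far above both WT libraries, and the replicates of each group were close. Its paralog RPL22A had 37.1 and 35.5 in xrn1, against 22.3 and 21.4 in WT, a log2 change of 0.73 ± 0.06 per spike-in RNA.

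The next largest changes in xrn1 per spike-in RNA were also in genes with introns. RPL40B, which encodes ubiquitin fused to a ribosomal protein, had 51.5 and 51.1 density units in xrn1, against 16.4 and 15.7 in WT (log2 1.67 ± 0.07, limma adjusted p = 1.2e-09). RPL7B had 6.72 and 8.38, against 2.63 and 2.42 (log2 1.56 ± 0.11). RPL17A, at the exit of the peptide tunnel, had 54.0 and 52.5, against 18.7 and 18.1 (log2 1.53 ± 0.06). In all 3 the groups did not overlap, and all 3 were called lower relative to the median protein-coding gene, at -0.24, -0.34 and -0.39.
RPL28, whose unspliced RNA is a known target of nonsense-mediated decay, had 76.3 and 70.2 density units in xrn1, against 35.1 and 35.0 in WT (log2 1.06 ± 0.07). RPL30, whose protein binds and blocks splicing of its own RNA, had 61.5 and 60.3, against 35.7 and 35.3 (log2 0.78 ± 0.06). RPL3, which has no intron, had 123 and 125, against 63.96 and 60.8 (log2 1.00 ± 0.07), and became the most abundant of the 81. Each of these was called higher per spike-in RNA and lower relative to the median gene. Among the genes with the smallest changes, beside RPL1A, RPL36B (26.2 and 25.7 in xrn1, against 25.0 and 23.5 in WT) and RPL13B (27.1 and 26.6, against 24.9 and 25.1) were not called per spike-in RNA and were at -1.82 and -1.81 on the relative scale.

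**Figure D2:**
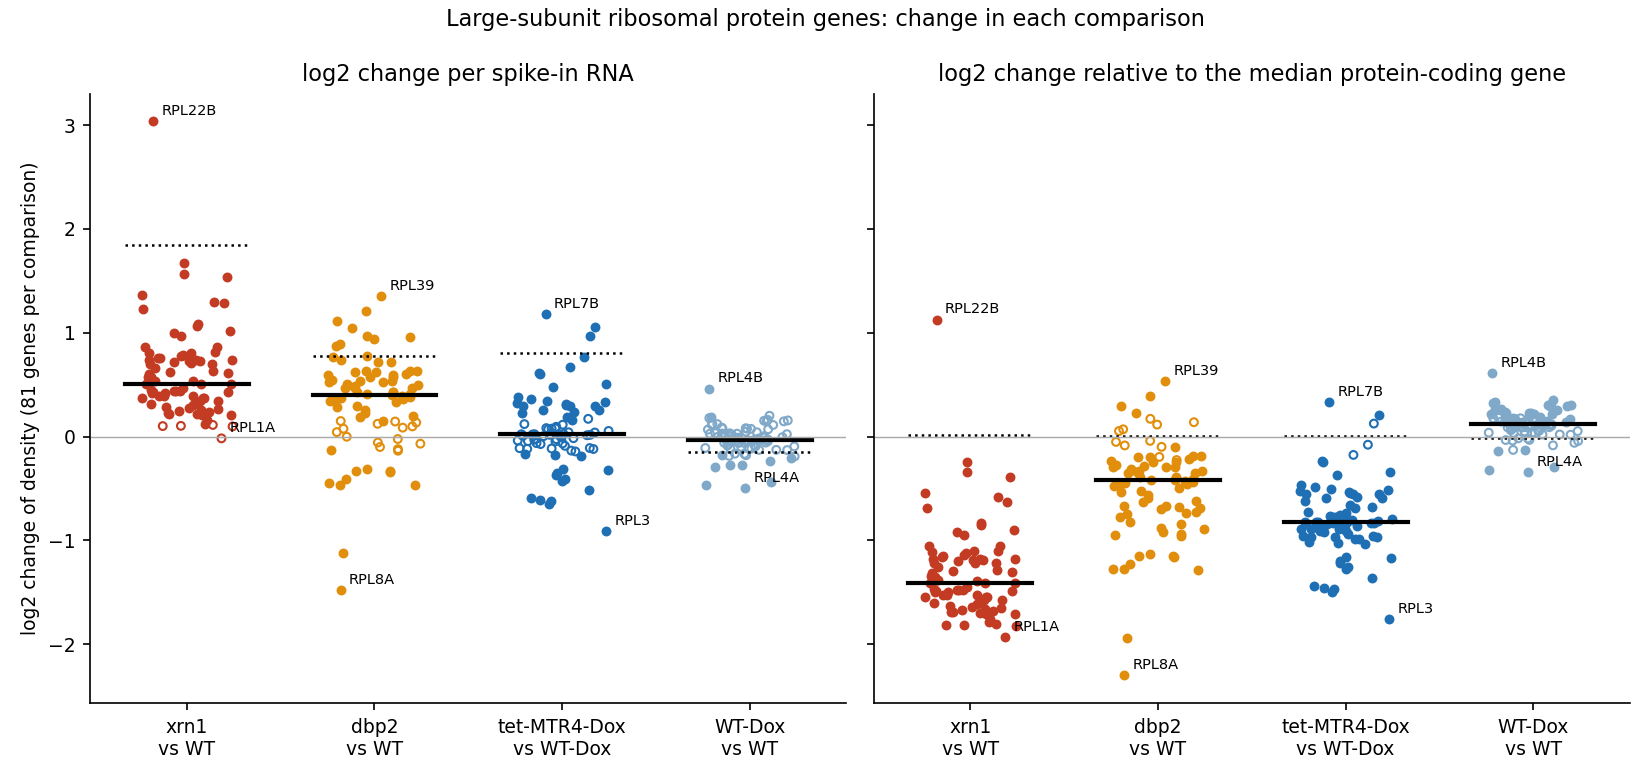
Log2 change of each of the 81 genes in each comparison, per spike-in RNA (left) and relative to the median protein-coding gene (right); filled points were called by limma and open points were not, solid lines are the members' medians and dotted lines those of protein-coding genes. In xrn1 all points but RPL22B (3.04) lie below the dotted line at 1.84 in the left panel.

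In dbp2 the members split into RNAs that were higher and RNAs that were lower than in WT. Per spike-in RNA 55 were called higher and 11 lower, where 84.7% of features were higher and 5.28% lower, with a median change of 0.40 (log2) against 0.77 for protein-coding genes. On the relative scale 4 were called higher and 66 lower, where 44.9% of features were higher and 27.4% lower, with a median of -0.42. The xrn1 and dbp2 comparisons use the same WT libraries. The largest falls were in RPL8A and RPL9B, which have no intron. RPL8A had 4.47 and 4.45 density units in dbp2, against 12.96 and 12.03 in WT, and fell by 1.48 ± 0.07 on the log2 scale per spike-in RNA (limma adjusted p = 1.2e-08). RPL9B had 4.20 and 4.10 in dbp2, against 9.17 and 8.89 in WT (log2 -1.12 ± 0.08, adjusted p = 3.8e-07). Both dbp2 libraries lay well below both WT libraries for each gene. The counted feature of RPL8A is 1459 bases long where the gene spans 771, so part of its reads may lie outside the gene, and 14.04% of the RPL9B windows of 50 bases occur elsewhere in the genome.

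The RNAs that rose most in dbp2 were those of small proteins. RPL39, the shortest exit tunnel protein, had 46.8 and 44.9 density units in dbp2, against 18.5 and 17.5 in WT (log2 1.35 ± 0.07 per spike-in RNA, limma adjusted p = 4.0e-08). RPL43A, a small zinc-binding protein, had 51.0 and 49.5, against 22.2 and 21.1 (log2 1.21 ± 0.06). RPL41B, which encodes a peptide of 25 residues, had 65.5 and 61.3, against 28.2 and 30.2 (log2 1.12 ± 0.11). RPL37A, another small zinc-binding protein, had 29.5 and 29.0, against 14.2 and 14.2 (log2 1.05 ± 0.05). These are the 4 genes called higher on both scales, at 0.53, 0.39, 0.30 and 0.23 relative to the median gene, and no library of either group overlapped the other. Scaled on all features in place of protein-coding genes, RPL39 (0.33) and RPL43A (0.19) were still called higher, while RPL41B (0.09) and RPL37A (0.02) were not. Limma voom on recovered reads called 7 genes higher on the relative scale. RPP0 fell, with 47.8 and 49.3 in dbp2 against 68.2 and 65.9 in WT (log2 -0.47 ± 0.07), while its partner RPP2B rose, with 85.1 and 80.7 against 41.5 and 43.7 (log2 0.96 ± 0.08).

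In tet-MTR4-Dox the median large-subunit gene hardly moved per spike-in RNA. Against WT-Dox, 25 genes were called higher and 15 lower, with 91.4% of features higher and 3.26% lower as background. The median change was 0.02 (log2) against 0.81 for protein-coding genes. On the relative scale 2 were called higher and 76 lower, where 62.6% of features were higher and 24.6% lower, with a median of -0.83. Scaled on all features the median was -1.49. RPL3 changed most downward, with 29.9 and 32.1 density units in tet-MTR4-Dox against 60.02 and 56.4 in WT-Dox, and fell by 0.91 ± 0.07 on the log2 scale (limma adjusted p = 1.7e-07). RPL4B, whose protein reaches into the exit tunnel, had 8.63 and 8.76, against 13.6 and 13.6 (log2 -0.65 ± 0.06). RPP0 had 45.9 and 43.3, against 71.6 and 65.2 (log2 -0.62 ± 0.07), and RPL15A had 34.1 and 34.2, against 53.5 and 51.1 (log2 -0.61 ± 0.07). None of these 4 genes has an intron, and in each the groups did not overlap.

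RPL7B and RPL18B were the 2 genes called higher on both scales after Mtr4 depletion. RPL7B had 6.86 and 5.90 density units in tet-MTR4-Dox, against 2.86 and 2.75 in WT-Dox (log2 1.18 ± 0.11 per spike-in RNA, limma adjusted p = 8.6e-07, and 0.33 ± 0.11 relative to the median gene). RPL18B had 8.33 and 8.21, against 4.08 and 3.87 (log2 1.05 ± 0.05, adjusted p = 3.6e-09, and 0.21 ± 0.05 relative). Scaled on all features in place of protein-coding genes, these values become -0.33 and -0.45. The median of all features lay at 0.52 on the relative scale in this comparison. Without tet-MTR4-Dox replicate 1 or WT-Dox replicate 1, 1 gene was called higher on the relative scale. RPL7A and RPL7B each carry a small nucleolar RNA in an intron, and Mtr4 is known to act in trimming such RNAs. The snR59 feature had 1206 and 1223 reads in tet-MTR4-Dox, where RPL7B had 7969 and 9484. In WT-Dox it had 73 and 87, where RPL7B had 4717 and 5735. Whether these reads were also counted for RPL7B is not known. If they were, RPL7B without them would have 5.82 and 5.14 density units in tet-MTR4-Dox, against 2.81 and 2.71 in WT-Dox. The groups would then still stand apart, but other intron reads would remain in the count. The part of the snoRNA in this rise was not tested. RPL7A had 15.8 and 16.9 in tet-MTR4-Dox, against 17.4 and 16.8 in WT-Dox, and was not called (log2 -0.07 ± 0.06). Its snoRNA feature, snR39, had 2406 and 2417 reads in tet-MTR4-Dox, against 269 and 425 in WT-Dox. Whether these were also counted for RPL7A is not known either. Without them RPL7A would have 13.8 and 15.4 in tet-MTR4-Dox, against 17.3 and 16.6 in WT-Dox, which do not overlap. RPL41B (58.2 and 51.9, against 30.9 and 25.4) and RPL9B (19.0 and 15.9, against 10.8 and 9.62) rose per spike-in RNA, at 0.97 ± 0.11 and 0.77 ± 0.08, and were not called on the relative scale.

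**Figure D3:**
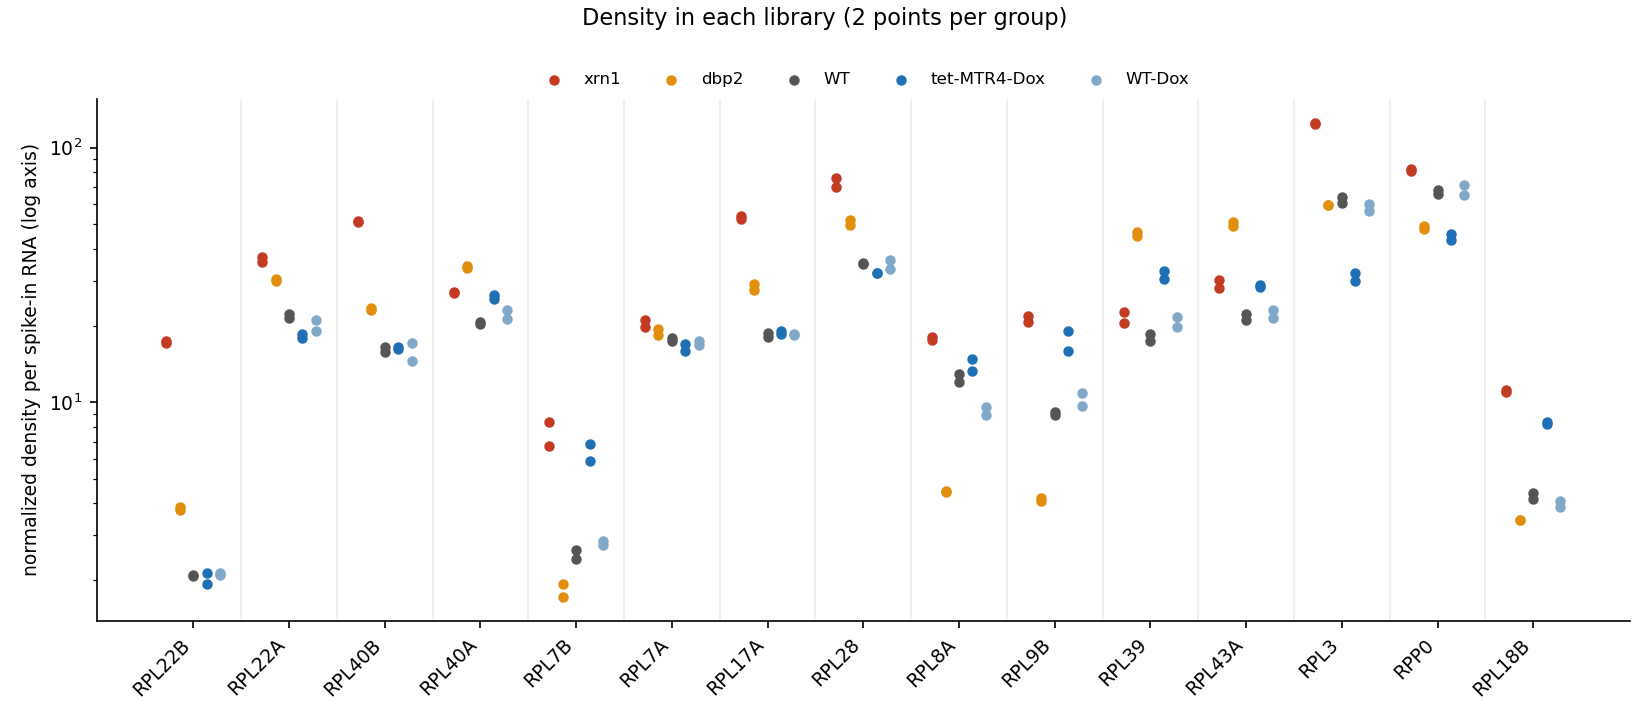
Density per spike-in RNA of 15 genes in each of the 10 libraries on a log axis, 2 points per group. RPL22B and RPL40B are high in the xrn1 libraries, RPL8A and RPL9B low in dbp2, RPL39 and RPL43A high in dbp2, and RPL7B and RPL18B high in xrn1 and tet-MTR4-Dox, while RPL3 and RPP0 are low in tet-MTR4-Dox.

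Between the wild types the large-subunit genes changed little. In WT-Dox against WT, 2 genes were called higher and 9 lower per spike-in RNA, with 10.4% of features higher and 30.6% lower as background. The median change was -0.03 (log2) against -0.14 for protein-coding genes. On the relative scale 33 were called higher and 5 lower, with 21.1% of features higher and 23.2% lower as background. The median was 0.12. These counts rest on few libraries. Without WT replicate 1, 4 genes were lower per spike-in RNA and 15 higher on the relative scale, and without WT-Dox replicate 2 these counts were 4 and 20. The RPL4 copies moved apart. RPL4A had 16.1 and 14.5 density units in WT-Dox, against 21.7 and 21.4 in WT (log2 -0.49 ± 0.06 per spike-in RNA, limma adjusted p = 0.00016), and RPL4B had 13.6 and 13.6, against 10.1 and 9.66 (log2 0.46 ± 0.06, adjusted p = 2.0e-04). Of the windows of 50 bases in each of these copies 72.7% occur elsewhere in the genome, so how reads were split between them is uncertain. RPL15B had 0.401 and 0.421 in WT-Dox, against 0.569 and 0.577 in WT (log2 -0.46 ± 0.06), and RPL8A had 9.56 and 8.87, against 12.96 and 12.03 (log2 -0.44 ± 0.07).

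Grouped by place in the ribosome, the genes of the peptidyl transferase centre and the tRNA site had medians below those of all 81 genes in dbp2 and tet-MTR4-Dox. These are RPL2A, RPL2B, RPL3, RPL4A, RPL4B and RPL10. Their coding sequences, from 666 bases (RPL10) to 1164 (RPL3), all lie in the longest class described below (561 to 1164 bases). Per spike-in RNA that whole class had medians of -0.03 (log2) in dbp2 and -0.08 in tet-MTR4-Dox. The part of length in the medians of these genes was not tested. Per spike-in RNA, 6 of 6 rose in xrn1 with a median of 0.71 (log2), 1 rose and 2 fell in dbp2 with a median of -0.10, and 0 rose and 5 fell in tet-MTR4-Dox with a median of -0.50, against medians over all 81 genes of 0.51, 0.40 and 0.02. Of all features 94.9%, 84.7% and 91.4% were higher and 0.89%, 5.28% and 3.26% lower in these comparisons, so 6 of 6 higher in xrn1 is near the background. Relative to the median gene, 6, 5 and 6 of the 6 were lower and 0 higher. On that scale 32.5%, 27.4% and 24.6% of all features were lower and 42.0%, 44.9% and 62.6% higher. RPL10 was the 1 that rose in dbp2 and the 1 not called in tet-MTR4-Dox, with 114 and 112 density units in dbp2 against 66.8 and 65.0 in WT (log2 0.78 ± 0.07), and with 66.1 and 66.2 in tet-MTR4-Dox against 64.1 and 59.95 in WT-Dox (log2 0.09 ± 0.07, not called). RPL2A had 18.2 and 17.5 in dbp2 against 24.6 and 24.1 in WT, and 15.4 and 16.4 in tet-MTR4-Dox against 24.1 and 23.9 in WT-Dox, so both libraries of each group lay below the controls.

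The 10 genes listed for the exit tunnel, where the new chain leaves the ribosome, had medians above those of all 81 genes in dbp2 and tet-MTR4-Dox and below in xrn1. Their longest coding sequences, 555 bases in RPL17A and RPL17B, lie in the middle class described below (369 to 555 bases). The part of length in these medians was not tested either. Of RPL17A, RPL17B, RPL25, RPL26A, RPL26B, RPL31A, RPL31B, RPL35A, RPL35B and RPL39, 10 of 10 rose in xrn1, 9 rose and 0 fell in dbp2 and 5 rose and 0 fell in tet-MTR4-Dox per spike-in RNA, with medians of 0.47, 0.50 and 0.14 (log2). Of all features 94.9%, 84.7% and 91.4% were higher. On the relative scale 10, 8 and 10 of the 10 were lower, where 32.5%, 27.4% and 24.6% of all features were lower. RPL4A and RPL4B, whose proteins also reach the tunnel, were listed with the peptidyl transferase centre. Both fell in tet-MTR4-Dox (log2 -0.41 and -0.65), and in dbp2 RPL4B fell (log2 -0.34) while RPL4A was not called (log2 -0.06), so the count of 0 that fell depends on where they are listed. RPL25, the docking site of the signal recognition particle, had 63.2 and 61.6 density units in xrn1 and 51.4 and 50.5 for dbp2, compared with 39.0 and 38.0 for WT. The counted features of RPL31A and of the noncoding transcript NUT0103 have nearly the same length and read counts, so the values of RPL31A may belong to both.

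The stalk genes did not move together. In xrn1 5 of 5 rose per spike-in RNA, with a median of 0.32 (log2), and in dbp2 3 rose and 1 fell, where 94.9% and 84.7% of all features were higher. All 5 were lower on the relative scale in xrn1, as were 4 in dbp2 and 4 in tet-MTR4-Dox. On that scale 32.5%, 27.4% and 24.6% of all features were lower in these comparisons. In tet-MTR4-Dox RPP1A (64.4 and 63.1 density units, against 53.7 and 48.2 in WT-Dox) and RPP2B (73.0 and 66.1, against 46.0 and 41.4) rose while RPP0 fell. RPP1B had 22.1 and 23.4 in tet-MTR4-Dox, against 22.8 and 22.1 in WT-Dox, which overlap. The lateral stalk proteins P1 and P2 bind the ribosome through P0.

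The genes of the particle formed with 5S ribosomal RNA were RPL5, RPL11A and RPL11B. Per spike-in RNA 3 of 3 rose in xrn1, 2 in dbp2 and 1 in tet-MTR4-Dox, where 94.9%, 84.7% and 91.4% of all features were higher. Of the 3 genes, 3, 2 and 3 were lower on the relative scale, where 32.5%, 27.4% and 24.6% of all features were lower. RPL5 had 79.9 and 83.0 density units in xrn1 and 84.0 and 81.04 for dbp2, compared with 54.9 and 52.2 for WT, with log2 changes of 0.61 ± 0.08 and 0.62 ± 0.08. In tet-MTR4-Dox it had 46.0 and 50.9, against 49.9 and 54.9 in WT-Dox, which overlap. Of the windows in each RPL11 copy 60.9% occur elsewhere, so those values are shared to an unknown degree.

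Among the smallest proteins, RPL29, RPL41A and RPL41B were each called higher per spike-in RNA in dbp2 and in tet-MTR4-Dox, where 84.7% and 91.4% of all features were higher. Counted on the relative scale, 1 was higher and 1 lower in dbp2, and 0 were higher and 2 lower in tet-MTR4-Dox. On that scale 44.9% of all features were higher and 27.4% lower in dbp2, and 62.6% and 24.6% in tet-MTR4-Dox. RPL41A had 68.1 and 63.6 density units in dbp2 against 40.0 and 47.4 in WT, and 62.8 and 76.4 in tet-MTR4-Dox against 46.8 and 50.7 in WT-Dox. Its coding sequence shares 69.0% of its windows with other places in the genome, and the replicates of WT and of tet-MTR4-Dox were farther apart than for most members. RPL29 had 26.5 and 24.7 in dbp2 against 16.9 and 16.9 in WT.

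Over all 81 genes, changes in dbp2 and tet-MTR4-Dox went with the size of the encoded protein. In dbp2, of the 27 genes with the shortest coding sequences (78 to 366 bases) 25 rose and 0 fell per spike-in RNA, with a median of 0.57 (log2). There 84.7% of all features were higher and 5.28% lower. Of the 28 in the middle (369 to 555 bases) 21 rose and 2 fell, with a median of 0.38, and of the 26 longest (561 to 1164 bases) 9 rose and 9 fell, with a median of -0.03. In tet-MTR4-Dox 18 of the shortest rose and 1 fell (median 0.30), 2 of the middle rose and 5 fell (median 0.00), and 5 of the longest rose and 9 fell (median -0.08). There 91.4% of all features were higher and 3.26% lower, so each class, the shortest included, rose less often than all features. In xrn1, where 94.9% of all features were higher, the 3 classes had 25, 28 and 23 genes that rose and medians of 0.44, 0.57 and 0.55. The shortest class had the highest median in dbp2 and tet-MTR4-Dox and the lowest in xrn1. Most genes of each class were lower on the relative scale. From the shortest to the longest class, 4, 0 and 0 were higher and 18, 26 and 22 lower in dbp2, with medians of -0.25, -0.44 and -0.85. In tet-MTR4-Dox 0, 0 and 2 were higher and 25, 28 and 23 lower, with medians of -0.55, -0.85 and -0.93. On this scale 44.9% of all features were higher and 27.4% lower in dbp2, and 62.6% and 24.6% in tet-MTR4-Dox.

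Across the 81 genes, which share libraries and are not independent, the change relative to the median gene and the coding length had a Spearman correlation of -0.56 in dbp2 (Pearson -0.55), -0.48 in tet-MTR4-Dox (Pearson -0.50), 0.08 in xrn1 (Pearson 0.07) and -0.25 in WT-Dox against WT (Pearson -0.19). With the counted feature length in place of the coding length these Spearman values were -0.47, -0.26, 0.08 and -0.05. The same measure over 5613 protein-coding genes was -0.30, -0.17, -0.01 and -0.16, and over 56 small-subunit genes it was -0.34, -0.28, 0.09 and -0.15. RNA length, fragment loss and RNA quality were not measured here apart from the reads, and their part in this was not tested.

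**Figure D4:**
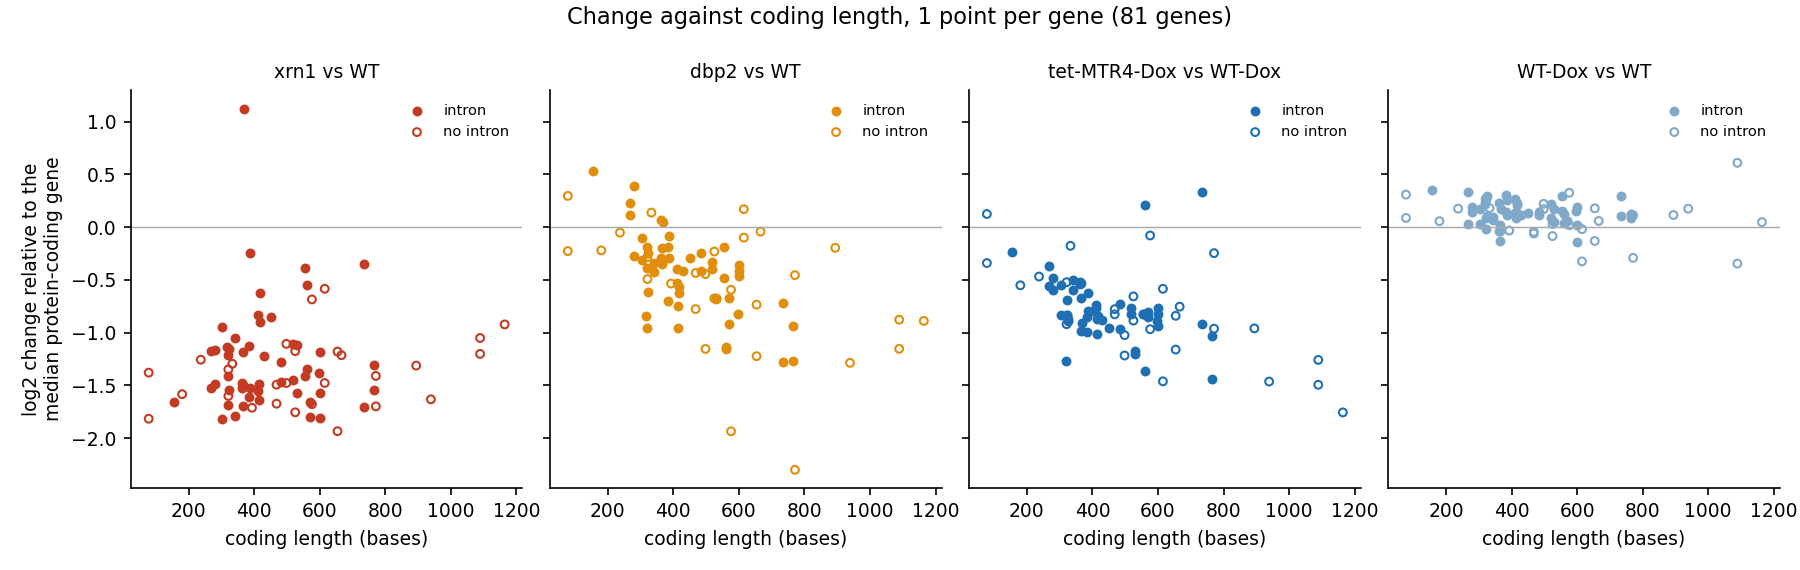
Log2 change relative to the median protein-coding gene against coding length in bases, 1 point per gene for 81 genes, with filled points for genes with an intron and open points for genes without. The points slope down from short to long genes in dbp2 (Spearman -0.56) and tet-MTR4-Dox (-0.48) and not in xrn1 (0.08), where RPL22B stands alone above 0.

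Genes with and without an intron had medians close to each other. In xrn1 the medians per spike-in RNA were 0.51 (log2) for the 53 genes with an intron and 0.52 for the 28 without, in dbp2 0.43 and 0.35, and in tet-MTR4-Dox 0.02 and 0.01. The 11 genes whose intron starts with a hexamer other than GTATGT had medians of 0.73 in xrn1, 0.47 in dbp2 and 0.02 in tet-MTR4-Dox, against 0.46, 0.41 and 0.02 for the 42 with GTATGT. Of these 11 genes 11 rose in xrn1 per spike-in RNA, where 94.9% of all features were higher. On the relative scale 10 of the 11 were lower, where 32.5% of all features were lower. RPL22B is in that class and RPL40B, RPL7B and RPL17A are not.

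Upstream sequence was read over 500 bases before each start codon on both strands. The motif ACCCANACA, a form of the Rap1 site, occurred in 29 of 81 genes (35.8%), against 3.08% of 6000 yeast genes. The PAC motif GCGATGAG, known from ribosome assembly genes, occurred in 1 of 81, against 4.83%, and the site of Abf1, a general regulator, in 7 of 81 (8.64%), against 18.2%. The promoter of RPL40B is shown because it holds the first motif and its RNA rose most after RPL22B in xrn1, and that of RPL22B because it holds none of the 3. Both are from R64, with 250 bases before and 50 after the start of the coding sequence, and the match, which reads on the opposite strand, is in capitals.
RPL40B, chrXI:618701-619000, - strand: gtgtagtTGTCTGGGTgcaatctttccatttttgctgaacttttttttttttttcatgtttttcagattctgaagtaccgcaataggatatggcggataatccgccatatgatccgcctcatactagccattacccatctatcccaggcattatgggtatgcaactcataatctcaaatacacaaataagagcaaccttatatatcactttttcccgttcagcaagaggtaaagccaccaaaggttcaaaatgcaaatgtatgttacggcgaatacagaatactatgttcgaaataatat
RPL22B, chrVI:64883-65182, - strand: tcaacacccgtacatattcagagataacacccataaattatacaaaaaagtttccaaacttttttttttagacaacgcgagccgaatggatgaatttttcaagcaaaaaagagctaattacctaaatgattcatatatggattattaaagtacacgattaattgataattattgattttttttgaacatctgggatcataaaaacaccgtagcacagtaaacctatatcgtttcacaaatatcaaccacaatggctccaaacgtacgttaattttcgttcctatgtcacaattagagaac
Genes with and without the Rap1-type motif had like medians per spike-in RNA, at 0.44 and 0.55 (log2) in xrn1, 0.35 and 0.41 in dbp2 and 0.02 and 0.02 in tet-MTR4-Dox.

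The balance between paralogs shifted in some pairs in each comparison. A pair was counted as shifted when its ratio of A to B density differed by at least 1.5-fold between groups with no overlap of libraries. In xrn1 11 of 35 pairs (31.4%) were, with 9 towards B and 2 towards A. The same held for 29.2% of 24 small-subunit pairs, with 3 towards B and 4 towards A. In each comparison the share of large-subunit pairs was near that of small-subunit pairs, so the number of shifted pairs sets the large-subunit genes apart in none of them. In the RPL22 pair, whose proteins are 84.4% identical, the A copy held 68.5% and 67.0% of the density in xrn1, against 91.5% and 91.1% in WT. In the RPL40 pair, which encode identical proteins, A held 34.5% and 34.4% in xrn1, against 55.7% and 56.4% in WT, so B became the major copy. In the RPL7 pair A held 75.8% and 70.3%, against 87.1% and 87.8%. The RPL17 pair moved the other way, with A at 79.1% and 79.2% in xrn1, against 64.8% and 65.5% in WT. The libraries of each group lay close together in all 4 pairs except for RPL7 in xrn1, and of the RPL7 windows 24.2% in A and 26.0% in B occur elsewhere.

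In dbp2 6 pairs shifted, with 3 in each direction. Of small-subunit pairs 20.8% did, with 2 towards B and 3 towards A. RPL8A held 9.46% and 10.0% of its pair in dbp2, against 28.1% and 28.0% in WT, while RPL8B had 42.8 and 39.9 density units, against 33.2 and 30.9 (log2 0.37 ± 0.06). RPL9A held 92.0% and 92.1% in dbp2, against 82.1% and 81.8% in WT. RPL12A, of a pair that encode the same protein of the stalk base, held 19.3% and 19.0%, against 27.5% and 28.3%. The falls of RPL8A and RPL9B thus were not matched by falls of RPL8B and RPL9A, which were both called higher per spike-in RNA.

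In tet-MTR4-Dox 6 pairs shifted, with 5 towards B and 1 towards A. Of small-subunit pairs 16.7% did, with 2 in each direction. RPL7A held 69.8% and 74.1% of its pair in tet-MTR4-Dox, against 85.9% and 85.9% in WT-Dox, and RPL9A held 64.5% and 68.3%, against 78.2% and 78.9%. RPL9 shifted towards B here and towards A in dbp2. In WT-Dox against WT 1 pair shifted, where 4.17% of small-subunit pairs did, and this was RPL4, with A at 54.1% and 51.6% in WT-Dox, against 68.2% and 68.9% in WT.

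**Figure D5:**
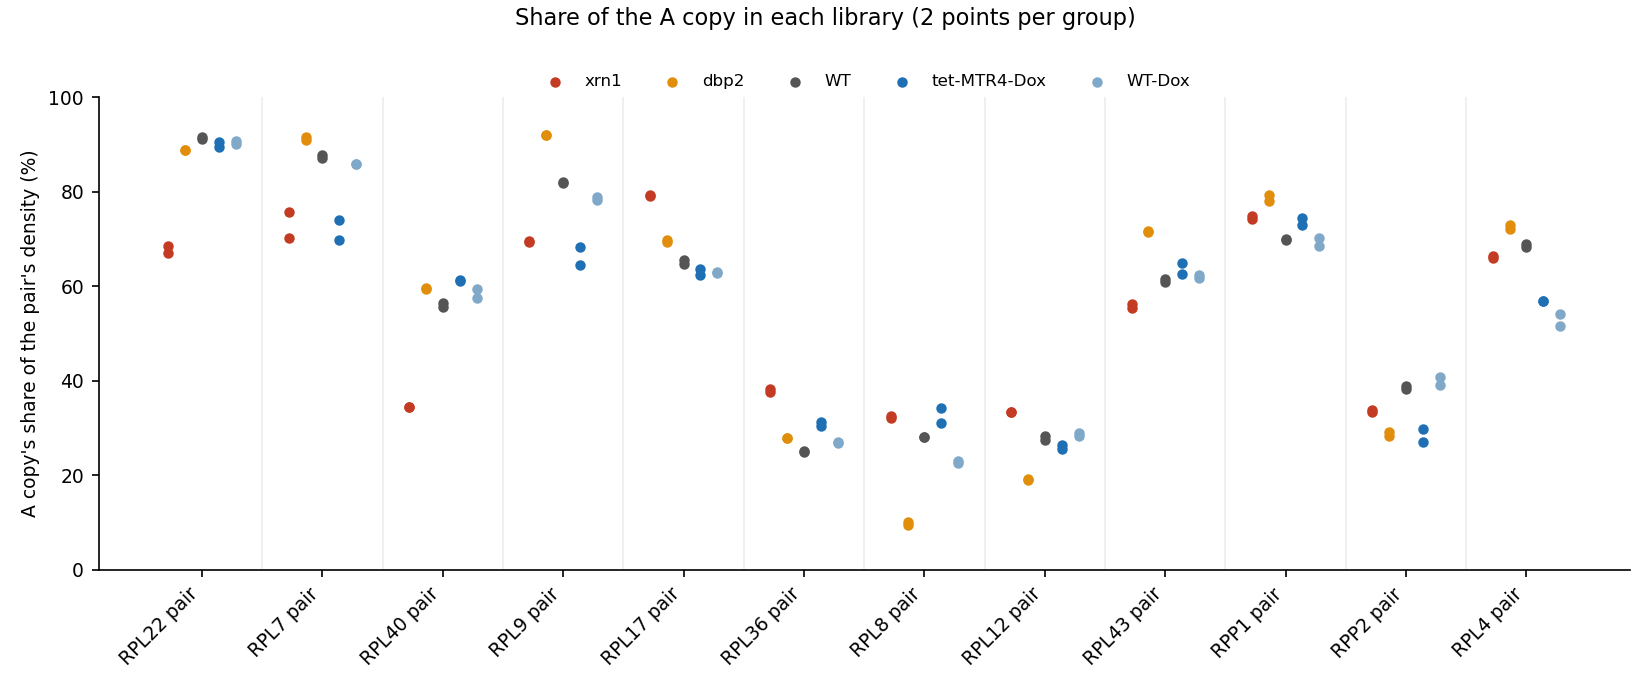
Share of the A copy in the density of 12 pairs of paralogs in each of the 10 libraries, in percent, 2 points per group. The share of RPL22A is near 68% in xrn1 and above 88% in all other libraries, and that of RPL8A is near 10% in dbp2.

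Set beside other ribosomal protein genes, the large-subunit genes had medians near those of the small subunit and below those of mitochondria. Relative to the median protein-coding gene, the 81 genes had medians of -1.41 (log2) in xrn1, -0.42 in dbp2 and -0.83 in tet-MTR4-Dox. The 56 small-subunit genes had -1.44, -0.57 and -0.89 and the 34 genes named MRPL of the mitochondrial large subunit had 0.32, 0.06 and -0.48. No test of the difference between lists was made.

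The genes that control ribosomal protein transcription were mostly higher per spike-in RNA, as were those that escort the products or act in large-subunit assembly. Their numbers were near those of all features (94.9% in xrn1, 84.7% in dbp2 and 91.4% in tet-MTR4-Dox). Of 10 regulators (RAP1, FHL1, IFH1, CRF1, SFP1, HMO1, TOD6, DOT6, STB3 and SCH9), 10 rose in xrn1, 9 in dbp2 and 8 in tet-MTR4-Dox per spike-in RNA and 0 fell, with medians of 2.11, 0.58 and 0.63 (log2). Relative to the median gene, 6 of them were higher and 3 lower in xrn1, and 3 higher and 6 lower in both dbp2 and tet-MTR4-Dox. CRF1, which encodes a co-repressor of ribosomal protein genes, had 0.125 and 0.135 density units in tet-MTR4-Dox, against 0.0143 and 0.0117 in WT-Dox (log2 2.23), the largest rise of the list there. IFH1, an activator that binds Fhl1, had 1.19 and 1.19 in dbp2, against 0.451 and 0.404 in WT (log2 1.44). A list of 13 chaperones, transport and assembly factors held SQT1, RRB1, SYO1, ACL4, BCP1, YVH1, MRT4, NMD3, ARX1, REI1, JJJ1, TIF6 and KAP123. Per spike-in RNA 13 rose in xrn1, 12 rose and 1 fell in dbp2, and 12 rose and 1 fell in tet-MTR4-Dox. The medians were 1.29, 0.68 and 0.82. Of these 13, on the relative scale, 1 was higher and 11 lower in xrn1, 4 higher and 7 lower in dbp2, and 5 higher and 5 lower in tet-MTR4-Dox. These counts stand beside the same shares of all features as those of the regulators. The 1 that fell in both was KAP123, an importer of ribosomal proteins, with 2.79 and 2.77 in dbp2 against 5.11 and 4.79 in WT and with 3.39 and 3.65 in tet-MTR4-Dox against 4.53 and 4.15 in WT-Dox. RRB1, the chaperone of Rpl3, had 3.95 and 4.27 in tet-MTR4-Dox, against 2.70 and 2.52 in WT-Dox (log2 0.65 per spike-in RNA), and was called lower on the relative scale (log2 -0.19), on which RPL3 was at -1.76.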

How the data were processed

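Per the labels' protocols, total RNA was depleted of ribosomal RNA and sequenced by strand. Per the submitters' processing notes, DESeq2, featureCounts 2.0.0, HISAT2 2.2.0 and Trim Galore were used on genome R64. The deposited table holds a normalized signal (density) per feature and library. Its 5 further columns equal the authors' means of replicates. Tested on the values, each signal was a whole number of reads (within 0.02) divided by a length and a library factor.

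Densities were compared with limma 3.58.1 (R 4.3.3; trended eBayes, Benjamini-Hochberg adjustment over 9666 features) on log2(density + 0.0188), over features with a mean density of at least 0.0344. This scale understates changes of low genes. All 10 libraries entered, with a coefficient per group and 5 residual degrees of freedom. The relative scale used median-of-ratios factors over protein-coding genes. The fit was tested on simulated data in which few features changed, which does not cover a shift of most features as seen here per spike-in RNA. Sequence came from R64.

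The members and lists were chosen with earlier results of these data known. Genes were named by role, by the largest changes on the relative scale and by the largest shifts of paralog ratio. The other genes named by value or motif were chosen after their values were seen. Alternatives covered pseudocount, filter, voom, the groups fitted, scaling, a replicate block, each library left out and members with near copies. Counting error is small at these depths, and 2 replicates a group set the precision. Results that turn on 1 of the genes are not reported here, though the gene is in the counts.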

Additional observations from a re-analysis of the deposited data

How the results depend on the processing

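With each library left out in turn, the genes called higher and lower per spike-in RNA numbered 69 to 76 and 0 to 0 in xrn1, 53 to 57 and 10 to 12 in dbp2, 23 to 28 and 14 to 18 in tet-MTR4-Dox, and 1 to 5 and 4 to 13 in WT-Dox against WT. On the relative scale they numbered 1 to 1 and 79 to 80 (median -1.42 to -1.38), 3 to 6 and 62 to 66 (median -0.44 to -0.39), 1 to 2 and 75 to 77 (median -0.84 to -0.81), and 15 to 39 and 3 to 6 (median 0.10 to 0.16). Where a group was left with 1 library, that library was assumed to vary like the other groups. In WT-Dox against WT, genes lower per spike-in RNA numbered 4 without WT replicate 1 and 4 without WT-Dox replicate 2, and genes higher on the relative scale numbered 15 and 20. Genes higher per spike-in RNA there numbered 1 without WT replicate 2 or WT-Dox replicate 1, 4 without WT-Dox replicate 2 and 5 without either tet-MTR4-Dox library, and genes lower on the relative scale numbered 3 without WT replicate 2, WT-Dox replicate 2 or any xrn1 or dbp2 library. In tet-MTR4-Dox, 1 gene was higher on the relative scale without WT-Dox replicate 1 or tet-MTR4-Dox replicate 1.

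Without the 58 members at least 95% identical to a paralog, 23 were left. Of these, genes higher and lower per spike-in RNA were 23 and 0 for xrn1, 17 and 1 for dbp2, 7 and 5 for tet-MTR4-Dox, and 1 and 0 for WT-Dox. On the relative scale 22 were lower in xrn1 (median -1.30), 2 higher and 15 lower in dbp2 (median -0.35), 0 higher and 22 lower in tet-MTR4-Dox (median -0.89), and 9 higher and 0 lower in WT-Dox (median 0.17). Without members over 10% repeated windows (chosen after seeing the data), 5 were lower in dbp2, 16 higher and 7 lower in tet-MTR4-Dox, and 1 higher and 4 lower in WT-Dox per spike-in RNA, with 1 higher in tet-MTR4-Dox and 2 lower in WT-Dox on the relative scale. Fewer genes were counted here, and what else moved these counts was not tested. Without RPL22B (also chosen after seeing the data) 0 were higher in xrn1 on the relative scale, and without RPL7A and RPL7B 1 was higher in tet-MTR4-Dox.

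Scaled on all features, the medians were -1.555 in xrn1, -0.62 in dbp2 and -1.49 in tet-MTR4-Dox, with 2 genes higher in dbp2 and 0 in tet-MTR4-Dox. Signs then turned for RPL22B (-0.15) and RPL35A (-0.14) in dbp2 and for RPL18B (-0.45), RPL41B (-0.54) and RPL7B (-0.33) in tet-MTR4-Dox. With voom 5 were higher and 14 lower in WT-Dox per spike-in RNA, and 7 higher in dbp2 on the relative scale. With only the 2 groups compared, 1 was higher in WT-Dox per spike-in RNA, and 20 higher and 3 lower on the relative scale. The cause was not tested for voom or for the smaller fit. Of 5676 gene values under alternatives, 5473 stayed on the same side of the threshold, 112 lost the call, 86 gained it and 5 were the reversals above. Among the 5473 were 36 values that took the other sign without being called.

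With the replicate number as a block, genes higher and lower per spike-in RNA were 76 and 0 for xrn1, 58 and 12 for dbp2, 27 and 16 for tet-MTR4-Dox, and 5 and 15 for WT-Dox against WT. Libraries that share a number correlated between -0.082 and 0.078 over 10 pairs of groups, so the numbers were not taken to pair the libraries.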
